A study of Homo sapiens with 6 samples.

Results

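The genes followed here, 8 in number, belong to a pair of peptide systems. They are those of the neuropeptides cholecystokinin (CCK) and neuropeptide Y (NPY), the CCK receptor genes CCKAR and CCKBR, the NPY receptor genes NPY1R, NPY2R and NPY5R, and DPP4, whose product trims NPY. All were chosen by name, with earlier results of these data known, and all 8 were found among the 26364 gene symbols of the expression table. RNAseq had been carried out on A673/TR/shEF cells, an Ewing sarcoma line that carries a tetracycline repressor and a doxycycline-inducible shRNA against the EWSR1::FLI1 fusion mRNA, so the repressor and the shRNA cassette were present in both groups. The 3 EWSR1::FLI1 high libraries came from untreated cells, and the 3 EWSR1::FLI1 low libraries came from cells kept in doxycycline at 1 µg/mL for 72 h. All were made from 1 engineered line, and no group received doxycycline without the shRNA against the fusion, so effects of the drug and of the knockdown cannot be told apart here. The labels number the libraries as experiments 1 to 3 without saying whether these were separate cultures, and p-values therefore measure only the spread between these libraries. The comparison addresses which of these genes differ in level between treated and untreated cells of this line.

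CCK and NPY are made as precursors that are cut in the secretory pathway and released from dense-core granules. CCK is known from the gut, where it triggers gallbladder contraction, and from the brain, and it acts through the G protein-coupled receptors encoded by CCKAR and CCKBR, of which the latter also binds gastrin. NPY is abundant in sympathetic nerves and acts through Y receptors, which lower cyclic AMP through inhibitory G proteins. The surface peptidase DPP4 removes the N-terminal dipeptide of NPY, which leaves a peptide that the Y1 receptor no longer recognizes well but the Y2 and Y5 receptors do. EWSR1::FLI1 joins the DNA-binding domain of the ETS factor FLI1 to a part of EWSR1, and it is known to bind runs of the tetranucleotide GGAA as well as single ETS motifs.

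The libraries held from 6980361 to 16658933 reads on genes, and values were given as FPKM, that is, fragments scaled to transcript length in kilobases and to library size, so that levels of genes of different length can be set side by side. FLI1, whose reads here include those of the fusion, read 11.3, 12.7 and 14.2 FPKM in the 3 untreated libraries (in the order of replicates 1, 2 and 3, as in all such lists below) and 2.91, 4.29 and 3.68 FPKM in the 3 treated with doxycycline. FLI1 thus fell, which came to -1.57 on the log2 scale (adjusted p = 0.000676, limma with Benjamini-Hochberg adjustment). The 8 Ewing sarcoma markers examined, among them CD99 and NKX2-2, were all at 1 FPKM or more in both groups, and their summed level was from 620 to 645 FPKM in EWSR1::FLI1 high and from 182 to 216 FPKM in EWSR1::FLI1 low libraries. Of 6 markers of leukocytes, endothelium, epithelium and red cells, none had a mean of 1 FPKM in EWSR1::FLI1 high cells and only PECAM1 passed it in EWSR1::FLI1 low cells, with 1.12 FPKM. The summed level of these 6 was from 1.64 to 2.58 FPKM without and from 2.65 to 3.83 FPKM with doxycycline, and its part in the results was not tested. EWSR1::FLI1 low replicate 1 had the fewest reads and the most genes above 0, 23458, and results that change without it are given with and without it.

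A stretch of the reference genome is shown first, because it holds a run of GGAA units close to CCK, the gene with the largest decrease of those followed. It is a 200-base window of GRCh37 upstream of CCK, read 5′ to 3′ in the direction of the gene, which is the minus strand. Capitals mark runs of 2 or more consecutive GGAA units.
CCK, chr3:42307940-42308139: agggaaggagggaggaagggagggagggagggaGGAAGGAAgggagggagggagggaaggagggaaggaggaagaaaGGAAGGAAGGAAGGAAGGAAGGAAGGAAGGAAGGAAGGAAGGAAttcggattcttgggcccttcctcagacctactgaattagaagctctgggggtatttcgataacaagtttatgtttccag
The window holds 11 consecutive GGAA units, centred 363 bp upstream of the outermost annotated CCK start. A further RefSeq start of CCK, with the upstream window chr3:42263948-42264197 in GRCh38.p14, lies deeper in the gene and further from the run. It was not used for this distance. Runs of 4 or more units of GGAA were counted on both strands, and 16453 were found in the genome. A run as near as that of CCK was found for 0.108% of the 13893 tested genes with coordinates. These are letters of the reference genome. The length of the repeat in A673 cells was not measured, and a match is a description, not a binding site.

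Across the whole table, 15504 genes had a mean of at least 0.5 FPKM and were tested with limma on log2(FPKM + 1). With an adjusted p under 0.01, 522 genes (3.37%) were lower in EWSR1::FLI1 low than in EWSR1::FLI1 high libraries and 700 (4.51%) were higher. Of the 8 genes followed here, 6 were tested. CCK, NPY1R and NPY5R fell and passed this limit, NPY, DPP4 and CCKAR did not, and none of the 6 rose and passed it. At an unadjusted p under 0.05, which 18.7% of all tested genes passed as lower and 15.6% as higher in limma, 5 of the 6 were lower and 0 were higher. Limma-voom on recovered reads, which called 5.06% of genes lower and 6.1% higher at an adjusted p under 0.01, also called 3 of the 6 lower and 0 higher. Without EWSR1::FLI1 low replicate 1, limma called 5.41% of genes lower and 10.2% higher, and 4 of the 6 were lower and 0 higher. CCKBR and NPY2R were under the filter and were not tested. Because the 8 genes were chosen with earlier results of these data known, their counts cannot be tested against the shares over all genes. Fewer cells that express a gene and less RNA of it per cell cannot be told apart in bulk RNA.

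**Figure D1:**
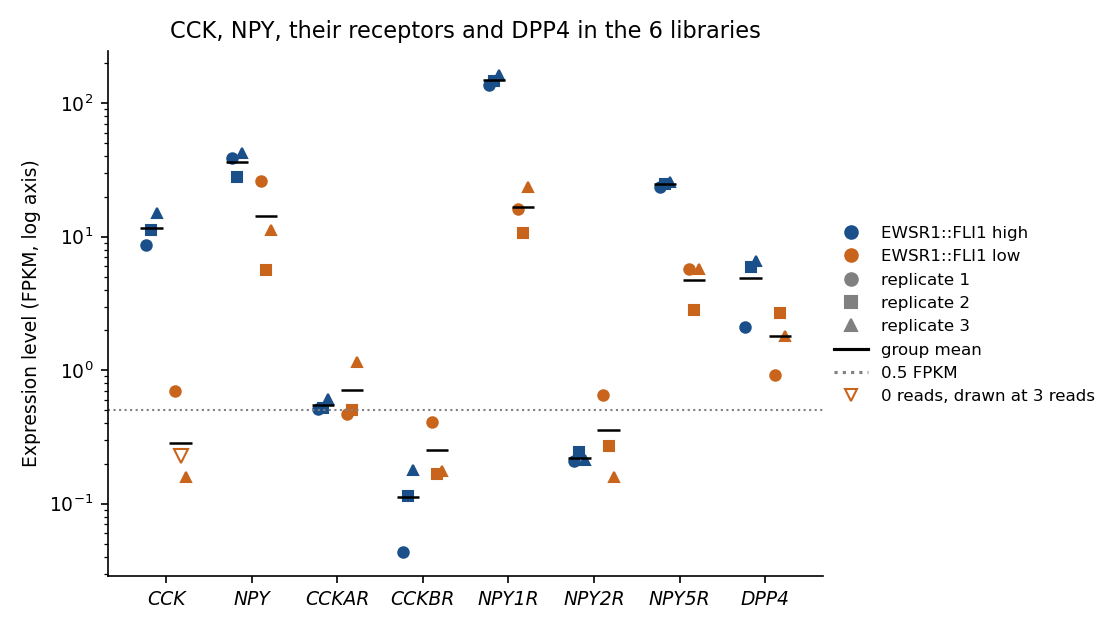
Levels of the 8 genes in each of the 6 libraries in FPKM on a log axis, with EWSR1::FLI1 high libraries in blue and EWSR1::FLI1 low libraries in orange, symbols for replicates, black bars for group means and a dotted line at 0.5 FPKM. NPY1R stood highest in EWSR1::FLI1 high cells with a mean of 149 FPKM, and the open triangle marks the CCK library without a read, drawn at the level that 3 reads would give.

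Of the ligands, CCK (ENSG00000187094, chromosome 3, 42299317 to 42307677, minus strand, GRCh37) was nearly lost with doxycycline, and NPY was reduced to an extent that differed between libraries. The untreated libraries held CCK at 8.68, 11.3 and 15.0 FPKM, which was more than 56.7% to 65.9% of the tested genes in the same library. With doxycycline, replicate 1 retained 0.697 FPKM (10 reads) and replicate 3 retained 0.159 FPKM (4 reads), while replicate 2 had no read. A count of 0 in replicate 2 allowed a level of up to 0.227 FPKM, which is what 3 reads would give, for counting error only. The groups were far apart, and the mean FPKM with doxycycline was 2.45% of that without. The log2 fold change was -3.30 (SE 0.25, 95% CI -3.87 to -2.73, adjusted p = 0.000108, limma with Benjamini-Hochberg adjustment), and only 5 of the 15504 genes had a larger decrease on this scale. Because 1 FPKM was added before the logarithm, this value understates the loss of a gene that approaches 0. It was -5.38 with 0.1 FPKM added and -6.02 with limma-voom on the recovered reads. A long noncoding RNA, ENSG00000281160, overlaps CCK by 1201 bp on the opposite strand, and it is not stated whether strand was used in counting.

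For NPY (ENSG00000122585, chromosome 7, 24323807 to 24331481, plus strand), levels were 38.6, 28.0 and 42.2 FPKM without doxycycline. With it they were 26.1, 5.66 and 11.2 FPKM. The groups did not overlap, but EWSR1::FLI1 low replicate 1 stayed close to the lowest library of the other group, and the other 2 libraries with doxycycline were well below it. The mean went from 36.3 ± 7.38 FPKM to 14.3 ± 10.6 FPKM (SD, n = 3 each), with a log2 fold change of -1.50 (SE 0.44, 95% CI -2.50 to -0.50, adjusted p = 0.0433, limma with Benjamini-Hochberg adjustment), which missed the limit. Without EWSR1::FLI1 low replicate 1 the log2 fold change of NPY was -2.03 and the adjusted p was 0.00141. When each library was left out in turn, it was from -2.03 to -1.01 with adjusted p from 0.00141 to 0.15 (limma). With replicate number as a block in the fit, a pairing that the labels and the data do not settle, the adjusted p of NPY was 0.00917 (limma).

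The transcripts of the other peptides that act on these receptors were near absent, and they were looked up after the values of CCK and NPY were known. GAST, which encodes gastrin, had 1 read in each of 2 libraries and 0 in the others. PYY had at most 2 reads in a library, and PPY, which encodes pancreatic polypeptide, had none. Of these ligands of the receptors, only CCK and NPY thus had more than 3 reads in any library.

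Of the receptors, 2 of the 3 Y receptor genes followed were expressed above 1 FPKM and both fell, whereas both CCK receptor genes and NPY2R were at 1.14 FPKM or less in every library. NPY1R (ENSG00000164128, chromosome 4, 164245114 to 164265984, minus strand), which encodes the Y1 receptor, was the most abundant of the 8 genes. Its levels were 137, 146 and 164 FPKM without doxycycline, above 97.5% to 97.8% of the tested genes, and 16.0, 10.6 and 23.4 FPKM with it. Every library with doxycycline was thus far below every library without it. The mean fell from 149 ± 13.6 to 16.7 ± 6.44 FPKM (SD, n = 3 each), which left 11.2% of the level. The log2 fold change was -3.15 (SE 0.27, 95% CI -3.75 to -2.54, adjusted p = 0.000193, limma with Benjamini-Hochberg adjustment), and only 6 genes had a larger decrease. NPY1R still stood above 60.6% to 75.2% of the tested genes with doxycycline.

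NPY5R (ENSG00000164129, chromosome 4, 164265044 to 164273086, plus strand), which encodes the Y5 receptor, also fell, from a lower level. Levels of NPY5R were 23.4, 24.9 and 25.8 FPKM in untreated and 5.74, 2.84 and 5.71 FPKM in treated libraries. The libraries without doxycycline lay within a narrow range, and the groups did not overlap. The log2 fold change was -2.20 (SE 0.24, 95% CI -2.75 to -1.66, adjusted p = 0.00049, limma with Benjamini-Hochberg adjustment), which left 19.3% of the mean level. CCK, NPY1R and NPY5R passed the limit whichever of the 6 libraries was left out, and all 3 missed it when genes with low values were not filtered out, with adjusted p from 0.0145 to 0.0208 (limma).

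**Figure D2:**
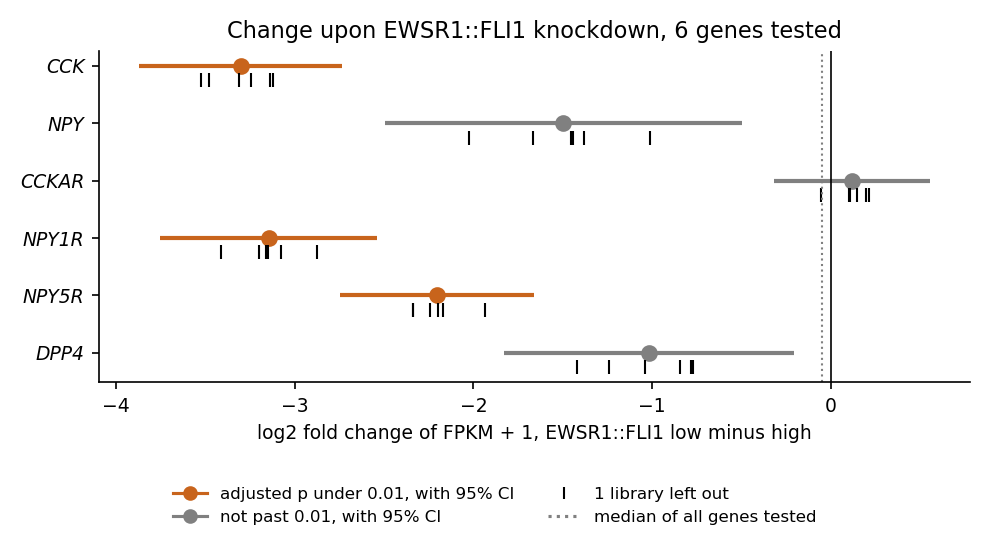
Log2 fold change of FPKM + 1 with its 95% confidence interval for the 6 genes tested, EWSR1::FLI1 low minus high, in orange where the adjusted p was under 0.01. Black ticks give the values with each library left out in turn, and the dotted line is the median of all genes tested, -0.05. CCK, NPY1R and NPY5R lie from -3.30 to -2.20, and the interval of CCKAR includes 0.

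NPY1R and NPY5R are neighbours that are read in opposite directions. Their gene bodies overlap by 941 bp through a long NPY1R transcript, and their main start sites are 11296 bp apart. Reads from the shared stretch could be given to either gene if strand was not used in counting. Both genes fell, and the ratio of NPY1R to NPY5R FPKM was 5.85, 5.85 and 6.34 without and 2.79, 3.72 and 4.10 with doxycycline. The ratios did not overlap between the groups. The log2 ratio differed by -0.78 with a two-sided exact permutation p of 0.1, which is the smallest p that 3 against 3 libraries can give. Leaving out 1 library at a time gave a difference from -0.90 to -0.62. Of the summed FPKM of the 3 Y receptor genes, NPY1R made up from 85.3% to 86.3% without and from 71.5% to 80.0% with doxycycline, and the sum itself went from 161 to 190 FPKM down to 13.7 to 29.3 FPKM.

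**Figure D3:**
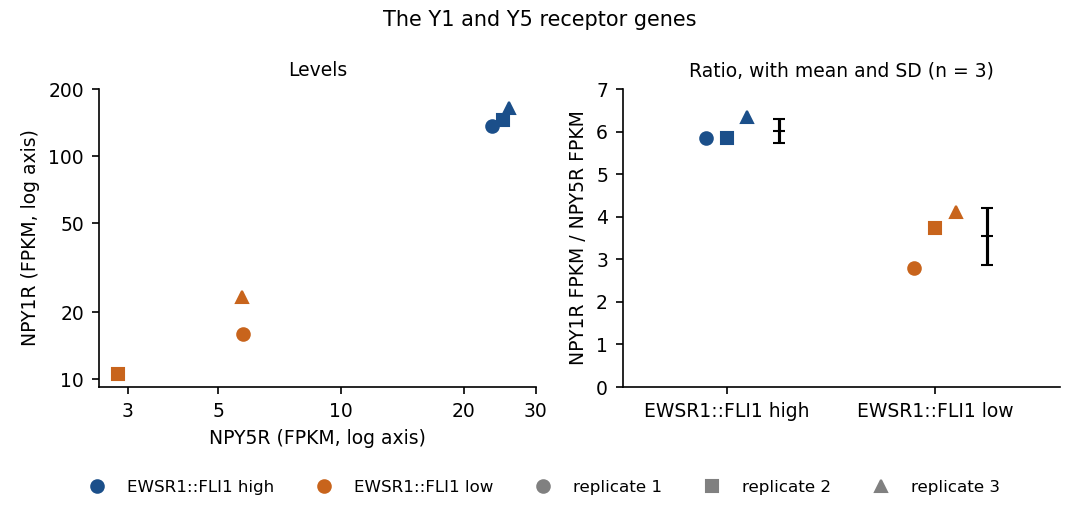
Left, NPY1R against NPY5R FPKM in the 6 libraries on log axes. Right, the ratio of both with its mean and SD (n = 3) per group, which was 6.01 ± 0.281 in EWSR1::FLI1 high and 3.54 ± 0.675 in EWSR1::FLI1 low libraries.

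The stretches just upstream of the RefSeq start sites of this pair are shown because the genes moved together and share an interval of the genome. Both have 150 bases before the start in GRCh38.p14, 5′ to 3′ in the direction of the gene, with GGAA on either strand (TTCC where it lies on the other strand) in capitals.
NPY1R, chr4:163332597-163332746, minus strand: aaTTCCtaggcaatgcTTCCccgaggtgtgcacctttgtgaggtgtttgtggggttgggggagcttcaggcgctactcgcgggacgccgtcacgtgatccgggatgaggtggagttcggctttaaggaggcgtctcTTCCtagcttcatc
NPY5R, chr4:163343742-163343891, plus strand: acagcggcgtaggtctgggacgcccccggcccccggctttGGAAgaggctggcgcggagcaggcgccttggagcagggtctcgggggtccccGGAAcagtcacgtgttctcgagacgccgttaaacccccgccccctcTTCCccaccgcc
Over the full 250 bases before the start, NPY1R had 6 matches and NPY5R had 3. A further RefSeq start of NPY5R, with the window chr4:163343852-163344101, had 1 match. Of 35116 such RefSeq windows, 92.74% held GGAA on either strand, with a median of 3 matches, and 9.14% held as many as NPY1R. A pair of adjoining units, GGAAGGAA, was in 3.064% of windows and in none of the windows of the genes followed here. The nearest run of 4 or more units in GRCh37 was the same for both genes. It was 100.8 kb from the outermost annotated start of NPY1R and 101.7 kb from that of NPY5R, and 55.0% and 55.4% of the tested genes had one as near.

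CCKAR (ENSG00000163394, chromosome 4, 26483018 to 26492106, minus strand), which encodes the receptor specific for sulphated CCK, was at 0.510, 0.522 and 0.614 FPKM without and at 0.468, 0.507 and 1.14 FPKM with doxycycline. These values rest on 7 to 30 reads per library, and the groups overlapped. The log2 fold change was 0.12 (95% CI -0.32 to 0.56, adjusted p = 0.711, limma with Benjamini-Hochberg adjustment), and its sign turned with quantile normalization and without EWSR1::FLI1 low replicate 3. CCKBR (ENSG00000110148, chromosome 11, 6281036 to 6293357, plus strand), which encodes the receptor shared with gastrin, was at 0.0436, 0.115 and 0.177 FPKM without and at 0.412, 0.168 and 0.176 FPKM with doxycycline. It had 1 to 3 reads without and 3 to 8 reads with doxycycline, and the two-sided exact permutation p was 0.3. No difference of CCKBR was detectable at this depth.

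NPY2R (ENSG00000185149, chromosome 4, 156129788 to 156138230, plus strand), which encodes the Y2 receptor, was at 0.210, 0.242 and 0.213 FPKM without and at 0.651, 0.269 and 0.159 FPKM with doxycycline. These levels correspond to 6 to 21 reads, the groups overlapped, and the two-sided exact permutation p was 0.6. The difference in mean log2(FPKM + 1) was 0.138, and it was -0.011 without EWSR1::FLI1 low replicate 1. NPY2R lies within the annotated MAP9-AS1 on the same strand and overlaps NPY2R-AS1 by 392 bp, so its reads could include some of these transcripts. NPY4R, which encodes the receptor preferred by pancreatic polypeptide, had at most 3 reads in a library.

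DPP4 (ENSG00000197635, chromosome 2, 162848755 to 162930904, minus strand) had levels of 2.13, 5.95 and 6.55 FPKM in untreated and of 0.923, 2.69 and 1.79 FPKM in treated libraries. EWSR1::FLI1 high replicate 1 was below EWSR1::FLI1 low replicate 2, so the groups overlapped. Within each replicate number, the library with doxycycline was the lower one. The mean was 4.88 ± 2.40 FPKM without and 1.80 ± 0.883 FPKM with doxycycline (SD, n = 3 each). The log2 fold change of -1.02 (SE 0.36, 95% CI -1.83 to -0.21, adjusted p = 0.0782, limma with Benjamini-Hochberg adjustment) missed the limit, and it was from -1.42 to -0.77 when 1 library was left out. With replicate number as a block in the fit, a pairing that the labels and the data do not settle, the adjusted p of DPP4 was 0.00711 (limma). DPP4-DT overlaps DPP4 by 1139 bp on the opposite strand.

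Of the 6 tested genes, 4 (CCK, NPY, NPY1R and NPY5R) had every EWSR1::FLI1 low library below every EWSR1::FLI1 high library, as did 23.6% of all genes tested. In EWSR1::FLI1 high cells the order by mean FPKM was NPY1R, NPY, NPY5R, CCK, DPP4, CCKAR, NPY2R and CCKBR, and neighbours in this order did not overlap between libraries. In EWSR1::FLI1 low cells the order was NPY1R, NPY, NPY5R, DPP4, CCKAR, NPY2R, CCK and CCKBR, and only NPY5R and DPP4 were neighbours whose ranges did not overlap. CCK thus went from the fourth to the seventh place, and the levels of NPY1R and NPY, clearly apart without doxycycline, overlapped with it.

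Distance to the nearest run of 4 or more GGAA units did not order the 7 genes described here by their change. The median distance over the 13893 tested genes with coordinates was 86.76 kb. CCK, which fell, had its run at 0.363 kb. NPY1R and NPY5R, which also fell, share 1 run of 10 units that lay beyond that median from both, so they are not separate cases. For CCKBR, DPP4, NPY and NPY2R the distances were 8.46, 13.4, 31.8 and 269 kb, with 4, 7, 4 and 16 units. CCKBR and NPY2R were under the filter, and DPP4 and NPY missed the limit, so their order by change is not settled. Whether distance has a part in the change was not tested.

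**Figure D4:**
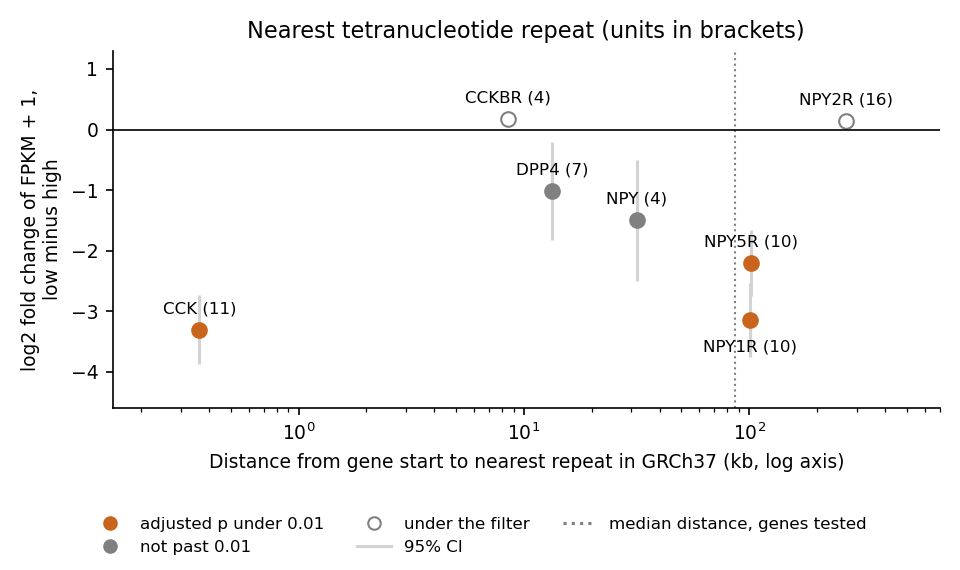
Distance from the outermost annotated start of 7 genes to the nearest run of 4 or more tetranucleotide units in GRCh37, on a log axis in kb, against the log2 fold change of FPKM + 1, with the number of units in brackets and grey lines for 95% confidence intervals. The dotted line is the median distance of tested genes, 86.76 kb. CCK lies to the left with a log2 fold change of -3.30, and NPY1R and NPY5R, which share 1 run, lie to the right of the median with -3.15 and -2.20.

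Of the genes next to these 8 by start position, 1 passed the same limit. Of 14 such neighbours outside the group, 9 were tested, 1 was lower and 0 were higher with an adjusted p under 0.01 (limma). Over all genes tested, 3.37% were lower and 4.51% higher, and 9 genes are too few to compare with these shares. The lower neighbour was NAF1, which encodes a factor of box H/ACA ribonucleoprotein assembly and starts 177 kb from NPY5R. NAF1 had a mean of 6.32 ± 1.11 FPKM without and 2.83 ± 0.115 FPKM with doxycycline (SD, n = 3 each), with a log2 fold change of -0.92 and an adjusted p of 0.00662 (limma). On the sides of CCK, TRAK1 differed by -0.23 on the log2 scale with an adjusted p of 0.366 (limma), and LYZL4 was under the filter. GCG, which encodes proglucagon and lies beside DPP4, was at 0.486 FPKM without and 0.635 FPKM with doxycycline.

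The genes whose log2(FPKM + 1) followed each tested gene most closely over the 6 libraries had a Pearson correlation from 0.984 to 0.999. These are descriptions over 6 libraries that fall into 2 groups, so for genes that fell the difference between the groups makes up most of the likeness. For CCK they were BHLHE22, AMER2 and LOXHD1, for NPY1R ZNF239, DCLRE1A and FAM49A, and for NPY5R LOC100288637, DPH6 and SLAIN1. For NPY they were PDGFD, SLC15A2 and LRRC4C, for CCKAR SCO2, SPIN2B and RNF31, and for DPP4 IRF2BP1, TRIM36 and RPLP2. CCKAR and its nearest genes were each highest in EWSR1::FLI1 low replicate 3, so their likeness rests largely on that library. Between the genes followed here, the correlation was 0.993 for NPY1R and NPY5R, 0.982 for CCK and NPY5R, 0.871 for NPY and NPY5R and 0.300 for NPY and DPP4.

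Genes that act before and after these peptides and receptors were counted in 5 lists, chosen with earlier results of these data known, against a median log2 fold change of -0.05 over all genes tested. At an adjusted p under 0.01 (limma), 3.37% of all genes tested were lower and 4.51% higher. These are the shares to set beside the counts of each list below, and no list was tested as a set. Of 23 genes for prohormone processing and dense-core granules, 20 were tested, 1 was lower and 2 were higher with an adjusted p under 0.01 (limma), and the median log2 fold change was 0.34. PCSK1, which encodes the prohormone convertase that cuts many neuropeptide precursors, went from 0.385 ± 0.0674 to 6.05 ± 1.56 FPKM, which is 2.33 on the log2 scale (adjusted p = 0.000156, limma). Its inhibitor precursor PCSK1N went from 5.65 to 19.9 FPKM, with a log2 fold change of 1.65. CADPS2, which encodes a priming factor for granule release, fell from 59.7 to 24.5 FPKM, a log2 fold change of -1.26. Without EWSR1::FLI1 low replicate 1, 2 of the 20 were lower and 6 were higher, at a setting where calls over all genes rose as well, to 5.41% lower and 10.2% higher, which holds for the counts without this library in the other lists too.

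Of 56 other neuropeptide and peptide hormone genes, 21 were tested, 3 were lower and 2 were higher, and the median log2 fold change was 0.06. The lower genes were UTS2 (urotensin II), which fell from 89.9 to 13.6 FPKM, CALCB (a calcitonin gene-related peptide), which fell from 12.9 to 3.59 FPKM, and PENK (proenkephalin), which fell from 10.4 to 4.23 FPKM. The higher genes were ADM (adrenomedullin), from 1.50 to 33.9 FPKM, and EDN1 (endothelin), from 0.382 to 15.1 FPKM. Of the other 16 tested, none passed the limit. Without EWSR1::FLI1 low replicate 1 the counts were 5 lower and 4 higher.

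Of 62 other peptide receptor genes, 16 were tested, 2 were lower and 2 were higher, with a median log2 fold change of 0.11. QRFPR and PROKR1, which encode receptors for the RFamide peptide QRFP and for prokineticins, had log2 fold changes of -1.80 and -1.74. EDNRA and SSTR2, which encode endothelin and somatostatin receptors, rose by 2.37 and 1.15. Leaving out EWSR1::FLI1 low replicate 1 gave 3 lower and 2 higher.

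Of 20 peptidases of small peptides, 16 were tested, 0 were lower and 3 were higher with an adjusted p under 0.01 (limma), and the median log2 fold change was 0.26. At an unadjusted p under 0.05 (18.7% of all tested genes lower, 15.6% higher), 1 was lower and 5 were higher, and limma-voom (5.06% lower, 6.1% higher) called 1 lower and 4 higher. Leaving out EWSR1::FLI1 low replicate 1 gave 1 lower and 4 higher. MME (neprilysin) rose from 1.40 to 16.8 FPKM, FAP, the closest relative of DPP4, from 7.42 to 26.9 FPKM, and PRCP from 3.86 to 9.66 FPKM. DPP4 itself, with a log2 fold change of -1.02, did not pass the limit.

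Of 35 G protein and effector genes, 33 were in the table (GRK2 and GRK3 were not matched) and 23 were tested, of which 2 were lower and 3 were higher, with a median log2 fold change of 0.14. RGS4, which encodes a protein that shortens signals of inhibitory and Gq-type G proteins, rose from 12.7 to 79.5 FPKM, and GNAI1, which encodes one of the inhibitory alpha subunits, rose from 10.4 to 27.1 FPKM. The related GNAI2 and GNAI3 did not pass the limit, with log2 fold changes of 0.45 (adjusted p = 0.233) and -0.44 (adjusted p = 0.17) in limma. ADCY6, an adenylyl cyclase gene, rose by 0.78 on the log2 scale. GNA14, of the Gq class, and GRK5, a receptor kinase gene, fell, with log2 fold changes of -1.54 and -1.21. Without EWSR1::FLI1 low replicate 1, 2 were lower and 5 were higher.

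**Figure D5:**
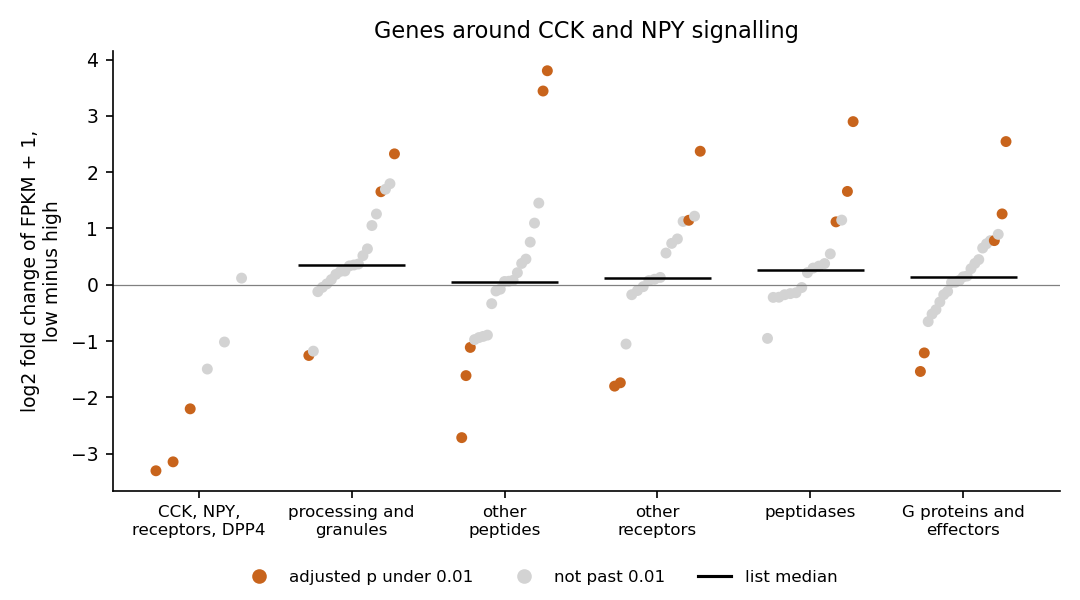
Log2 fold change of FPKM + 1, EWSR1::FLI1 low minus high, for every tested gene of the 6 genes followed and of the 5 lists around them, sorted within each list, in orange where the adjusted p was under 0.01 and with a black bar at the median of each of the 5 lists. The medians of the 5 lists lie from 0.06 to 0.34, with genes called on both sides in 4 of them.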

How the data were processed

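RNAseq of 6 libraries was examined. Per the labels and the study's methods, the authors depleted ribosomal RNA, prepared ScriptSeq v2 libraries, aligned reads with STAR 2.5.0b to GRCh37, estimated abundance with Cufflinks 2.2.1 and compared groups with DESeq2 1.6.3. A table deposited by the authors gives FPKM per gene and library, already on a common scale between libraries. A second table deposited by the authors gives a mean normalised signal per gene over the 6 libraries, from counts divided by size factors, beside fold changes and p-values, which were not used. Multiplying FPKM by the ratio of that signal to mean FPKM, and by a size factor per library inferred from the steps of low values, gave whole reads (100% of values within 0.1 reads), hence the depths.

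The 8 genes and all lists were chosen with earlier results of these data known. Genes with a mean of at least 0.5 FPKM were tested with limma 3.58.1 (trend, R 4.3.3) on log2(FPKM + 1), with Benjamini-Hochberg adjustment over all 15504 and a limit of 0.01. On data simulated with independent normal noise, 73% of 200 genes changed by 2 on the log2 scale were recovered, with 3 false calls. The changed genes were drawn only from those with a mean log2(FPKM + 1) above 3. The recovery rate therefore does not cover genes at the lower mean levels of CCK, CCKAR and DPP4. Other genes named were FLI1, up to 4 called genes per list and direction, the 3 genes most correlated with each tested gene, and adjacent genes. Single values were compared by two-sided exact permutation tests (scipy 1.17.1). Annotation was GENCODE lifted to GRCh37, and promoter windows came from RefSeq (GRCh38.p14), which held 7 of the 8 genes. The repeat nearest to 1 of the 8 genes is not reported here.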

Additional observations from a re-analysis of the deposited data

How the results depend on the processing

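With the replicate block, 786 genes were lower and 916 higher (522 and 700 in the reported fit). In that fit 5 of the genes followed passed, with NPY at -1.50 (adjusted p = 0.00917, limma) and DPP4 at -1.02 (adjusted p = 0.00711, limma). The labels' numbers permit this pairing, and the data do not settle it. Correlations of same-numbered deviations were 0.271, 0.0889 and 0.124, and those of the other pairs were from -0.289 to 0.189. Not every library was closest to its own number. Without a filter on low values, 35 genes were lower and 89 higher and 0 of the genes followed passed in limma (4 at an unadjusted p under 0.05, and 3 passed with limma-voom unfiltered), with CCK at -3.30, NPY1R at -3.15 and NPY5R at -2.20 (adjusted p 0.0145, 0.0145 and 0.0208). Quantile normalization gave 1000 lower genes and 992 higher and a CCKAR change of -0.013. Limma-voom on recovered reads gave 784 lower genes, and 789 without the FPKM filter, a setting chosen after seeing the data, in which CCKBR differed by 1.00 (0.71 with 0.1 FPKM added). Leaving out 1 library gave from 157 to 807 lower and from 308 to 1527 higher genes, with the highest counts without EWSR1::FLI1 low replicate 1. It gave 3 to 4 of the genes followed, NPY from -2.03 to -1.01, and CCKAR from -0.057 (without EWSR1::FLI1 low replicate 3) to 0.22. Of the lists, called genes of processing and granules numbered 3 in the reported fit, 0 without a filter, 5 with the block or limma-voom and 6 with limma-voom unfiltered. Peptides went from 5 to 1, receptors from 4 to 0, peptidases from 3 to 1 and effectors from 5 to 1 without a filter, and peptidases were 5 with limma-voom. The causes were not tested. Median-ratio factors were all 1 and returned the same values. In the other alternatives CCK, NPY1R and NPY5R kept direction and call. Depth limits CCKAR, CCKBR and NPY2R, with at most 30 reads in a library.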
